A study of Mus musculus with 9 samples.

Results

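The proteasome genes of mouse back skin were taken as all gene symbols that start with Psma, Psmb, Psmc, Psmd or Psme followed by a digit. These were 45 of 23282 entries in the deposited count tables, and 43 of them held enough counts to be tested. Of the 43, 41 encode subunits or assembly factors of the proteasome: 7 genes of the 20S alpha ring, 7 of the constitutive beta ring, 5 of the immunoproteasome and its activator, 6 ATPases and 3 other subunits of the 19S base, 8 of the 19S lid, 3 assembly chaperones of the 19S particle and 2 further activators. The pattern also took in Psmc3ip, which encodes no proteasome subunit, and Psme2b, a near copy of Psme2, and both were kept apart. The 2 members left untested were Psma8, a germ-cell alpha subunit with 0 counts in every library, and Psmb11, the thymus beta subunit, with 9, 7 and 6 counts in the 3 groups.

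The skin came from wild-type C57BL/6 (B6) mice and was collected 24 h after treatment, in 3 groups of 3 libraries. Unstripped skin is labelled as given control cream, although the protocol describes cream on stripped areas only. Stripped control skin was tape-stripped, which removes outer epidermis with adhesive tape, and received control cream. NGO-treated skin was tape-stripped and received cream holding NGO (nano-sized graphene oxide, a sheet-like carbon material) at 50 µg in 100 µL per mouse; the title of the series names acute skin inflammation as its subject. The labels number the libraries 1 to 3 without saying whether each came from its own animal, and the p-values therefore rest on a spread between samples that may be technical. The labels give neither age nor sex.

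The proteasome is the protease that degrades proteins tagged with ubiquitin. Its 20S core is a barrel of alpha rings that gate the entrance and beta rings that carry the active sites, and the 19S regulatory particle, built of a base and a lid, binds, deubiquitinates and unfolds the substrate. Interferon gamma induces 3 replacement catalytic subunits (Psmb8, Psmb9 and Psmb10) and the PA28 activator (Psme1 and Psme2), and this immunoproteasome shapes the peptides that class I molecules present. Immune cells and antigen-presenting cells of skin are known to carry it. The genes of the standard particle are widely expressed and are known to be raised together by Nfe2l1 when proteolysis is short.

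Library totals ran from 2019739 to 6303322 counts, and levels are given as CPM, the share of a library's counts scaled to a common total, after TMM scaling. The labelled tissue was checked against its markers: all 8 basal keratinocyte markers were detected in each group, but their summed share was 2.69% to 3.33% of counts before stripping, 0.144% to 0.242% in the stripped control libraries and 1.34% to 2.09% with NGO. Suprabasal keratinocyte markers took 0.676% to 1.51%, 0.0186% to 0.0383% and 0.0983% to 0.143%, and Ivl among them was at 0 in stripped control skin. Skeletal muscle markers, 16 of 16 detected in each group, took 0.0111% to 0.154%, 4.46% to 9.85% and 2.34% to 4.56%. Neutrophil markers took 0.00336% to 0.0052%, 0.264% to 0.791% and 0.0534% to 0.174%, and 1 of their 7 counted genes, Clec4d, was at 0 in unstripped skin. The 45S ribosomal transcript Rn45s took 14.2% ± 1.63, 23.4% ± 1.51 and 15.3% ± 5.82 of counts (SD, n = 3). These shares moved with the groups, and their part in the results on proteasome genes was not tested.

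Most proteasome genes did not pass the test in any comparison, and the main exception was Psmd8, a lid subunit that rose after stripping and was lower again in NGO-treated skin. Genes count as called where the edgeR quasi-likelihood test over 13740 genes gave an adjusted p below 0.05. In stripped control against unstripped skin, 3 of 43 members were called (6.98%), with Psmd8 and Psmd11 higher and Psme2b lower, while 13.6% of all genes tested were called (5.97% higher and 7.64% lower). In NGO-treated against stripped control skin, 1 of 43 was called (2.33%), Psmd8 lower, against 5.05% of all genes (3.87% higher and 1.18% lower). In NGO-treated against unstripped skin edgeR called 0 of 43, against 2.51% of all genes (2.06% higher and 0.451% lower). In that comparison 5 of 43 members had an unadjusted edgeR p under 0.05, against 11.7% of all genes. DESeq2 called 1 member (Psmc2) and 756 of the 13740 genes. Limma-voom called 4 members (Psma7, Psmc2, Psmc6 and Psmd8) and 1353 of the 13740 genes. In the other comparisons the tools differed for 2 members, Psmb6 and Psmb9, which limma-voom alone called after stripping. The groups' libraries did not overlap for 8, 9 and 8 of the 43 members in the 3 comparisons (18.6%, 20.9% and 18.6%), against 38.5%, 25.2% and 26.2% of all genes. These are bulk libraries, in which fewer cells of a type and less RNA per cell cannot be told apart.

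The size of the fitted changes was small for most of the family. In stripped control against unstripped skin, the median log2 fold change was 0.04 over the 43 members and -0.20 over all genes, and 34 members (79.1%) lay within 1 log2 unit of no change, as did 47.6% of all genes. For NGO-treated against stripped control skin the medians were 0.27 and 0.07, with 38 members (88.4%) and 52.1% of all genes within 1 log2 unit. For NGO-treated against unstripped skin they were 0.28 and -0.07, with 40 members (93.0%) and 66.5% of all genes. The last 2 comparisons share the NGO-treated libraries, and the first shares its stripped control and unstripped libraries with them. After stripping the members had a median standard error (SE) of 0.44, against 0.94 for all genes. A missed threshold does not show that a gene was unaffected: the 95% interval lay wholly within 1 log2 unit for 8, 7 and 4 of the 43 members in the 3 comparisons.

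**Figure D1:**
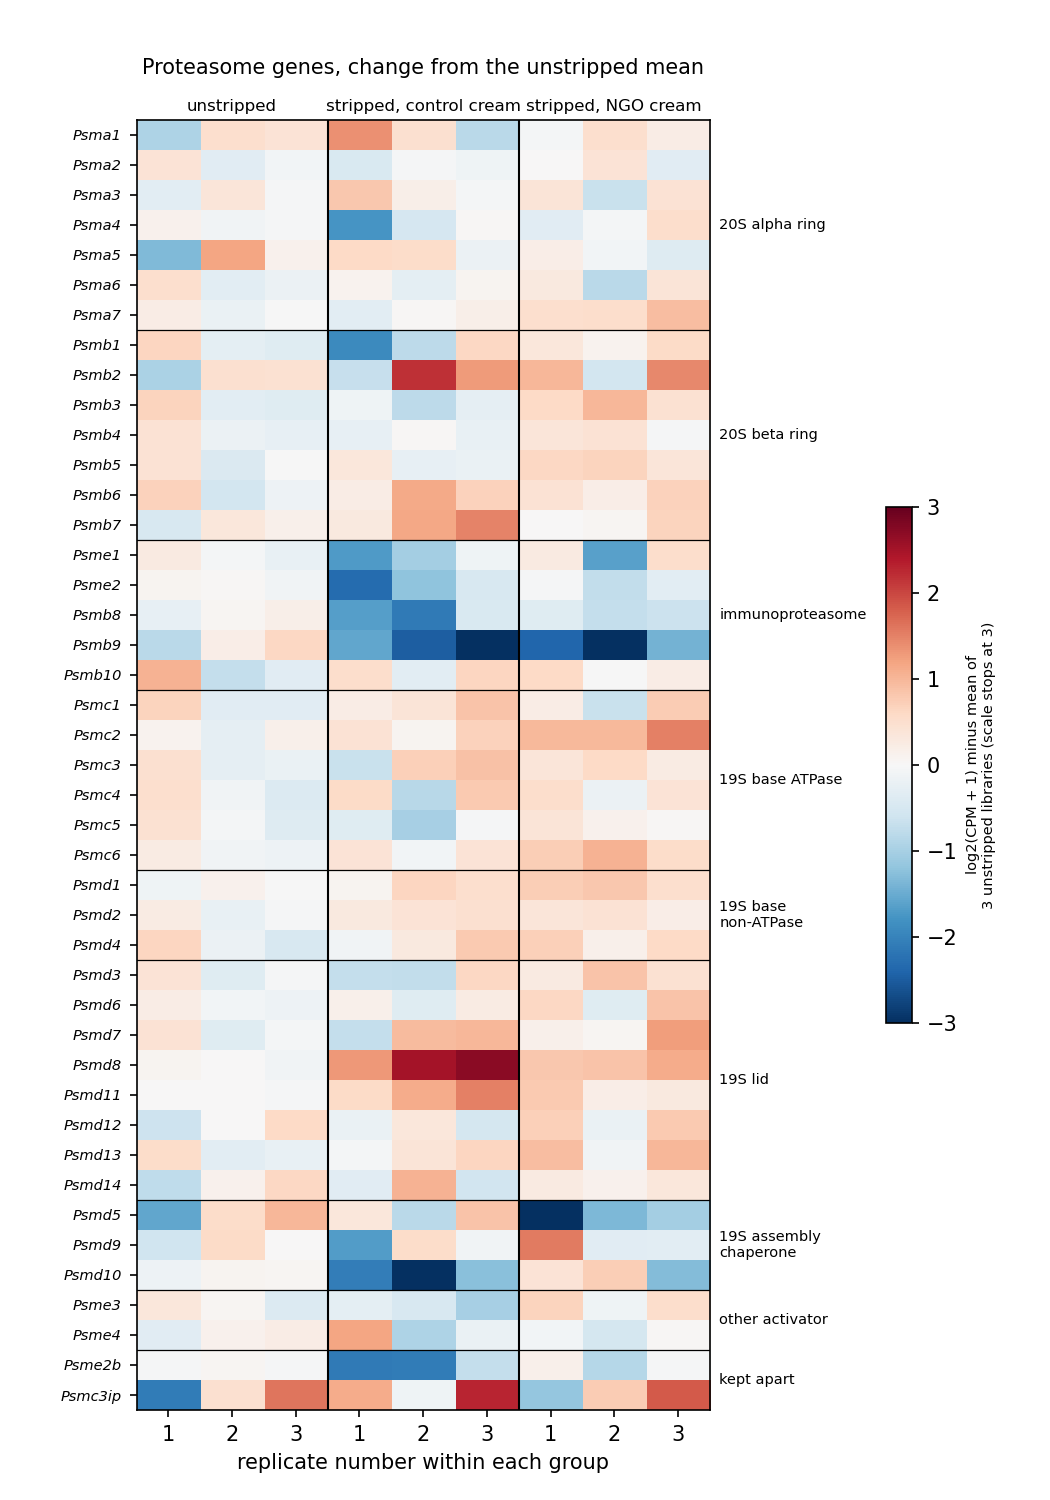
Each cell shows log2(CPM + 1) of 1 of 43 tested proteasome genes (rows, by role) in 1 of 9 libraries (columns), minus the mean of the 3 unstripped libraries; red is above and blue below that mean, and the colour scale stops at 3. Psmd8 and Psmd11 are red in all 3 stripped control libraries, and Psmb9 is blue in all 6 stripped libraries.

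The subunits and assembly factors were summed as 43 genes, with the untested Psma8 and Psmb11 and without Psmc3ip and Psme2b. Together they took 0.476% ± 0.0488 of all counts in unstripped skin, 0.440% ± 0.0452 after stripping with control cream and 0.580% ± 0.0335 after stripping with NGO (SD, n = 3). By library these shares were 0.531%, 0.440% and 0.457% in unstripped skin, 0.394%, 0.441% and 0.485% after stripping with control cream and 0.617%, 0.552% and 0.572% after stripping with NGO. In this share all NGO-treated libraries lay above the other 6, while unstripped and stripped control skin overlapped. Summed in TMM-scaled CPM, the same genes stood at 5109, 3789 and 3960 in unstripped skin. They stood at 4118, 5498 and 6312 in stripped control and 5584, 5010 and 6001 in NGO-treated skin. On that scale all groups overlapped and stripped control replicate 3 was the highest library. The stripped control mean then lay above the unstripped one (5309 against 4286 CPM), not below it. Cell cycle markers, 6 of 6 detected in each group, were also highest in all NGO-treated libraries, at 0.109% to 0.136% of counts against 0.0544% to 0.107% before stripping and 0.00797% to 0.0131% with control cream. Their part in the proteasome share was not tested. The shares have the ribosomal transcript and the muscle genes in their denominator, whose levels are given above. The spread between replicates was no larger than that of the 10534 genes whose mean lies in the members' range of 7.74 to 395 CPM. Over members the median SD of log2(CPM + 1) was 0.42, 0.53 and 0.32 in unstripped, stripped control and NGO-treated skin. Over the 10534 genes it was 0.42, 0.89 and 0.61. Within that range the genes were not matched to the members by level.

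The 7 alpha ring genes, which form the gate of the core, were called in no comparison (0 of 7 in each). Beside 27.9%, 21.2% and 11.7% of all genes, 0, 1 and 1 of the 7 had an unadjusted edgeR p under 0.05. Their summed level was 883 ± 101 CPM in unstripped, 831 ± 25.5 CPM in stripped control and 1026 ± 63.8 CPM in NGO-treated skin (SD, n = 3). Fitted log2 fold changes ran from -0.58 (Psma4) to 0.47 (Psma1) after stripping, from -0.46 (Psma5) to 0.69 (Psma7) with NGO against stripped control skin and from -0.42 (Psma5) to 0.66 (Psma7) against unstripped skin. Psma7, the alpha4 subunit, stood at 253, 189 and 217 CPM in the unstripped, 174, 222 and 247 CPM in the stripped control and 312, 315 and 414 CPM in the NGO-treated libraries. The NGO-treated libraries lay above both other groups, with a log2 fold change of 0.69 ± 0.29 (SE) against stripped control skin and 0.66 ± 0.29 against unstripped skin, and edgeR adjusted p-values of 0.181 and 0.373. Levels of Psma1 were 23.0, 64.3 and 59.8 CPM in the unstripped, 117, 62.7 and 25.1 CPM in the stripped control and 42.6, 64.1 and 52.2 CPM in the NGO-treated libraries. Psma4 was counted at 118, 98.7 and 105 CPM in the unstripped, 30.5, 75.1 and 109 CPM in the stripped control and 84.2, 103 and 154 CPM in the NGO-treated libraries. Psma5 came to 7.57, 47.5 and 22.4 CPM in the unstripped, 31.6, 30.2 and 18.0 CPM in the stripped control and 23.6, 19.2 and 15.3 CPM in the NGO-treated libraries. The groups overlapped for each of these 3 genes, and the exons of Psma4 overlap AY074887 on the opposite strand.

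The constitutive beta ring, whose Psmb5, Psmb6 and Psmb7 carry the chymotrypsin-like, caspase-like and trypsin-like active sites, was also called in no comparison (0 of 7 in each). Beside 27.9%, 21.2% and 11.7% of all genes, 1, 1 and 0 genes of the ring had an unadjusted edgeR p under 0.05. Its summed level was 846 ± 276 CPM, 890 ± 209 CPM and 1081 ± 33.5 CPM in the 3 groups (SD, n = 3). Psmb5 had 128, 70.4 and 94.0 CPM in the unstripped, 120.0, 79.3 and 81.9 CPM in the stripped control and 147, 152 and 122 CPM in the NGO-treated libraries. Its NGO-treated libraries lay above the stripped control ones by a fitted log2 change of 0.58 ± 0.35 (SE; edgeR adjusted p = 0.37). Psmb6 had 245, 102 and 135 CPM in the unstripped, 176, 333 and 244 CPM in the stripped control and 203, 171 and 244 CPM in the NGO-treated libraries, with a fitted log2 change of 0.65 ± 0.38 after stripping (edgeR adjusted p = 0.296), and limma-voom alone called it (1.05, adjusted p = 0.0232). Psmb7, whose exons overlap Nek6 on the opposite strand, had 25.8, 46.3 and 40.4 CPM in the unstripped, 45.0, 82.5 and 103 CPM in the stripped control and 36.8, 37.9 and 58.4 CPM in the NGO-treated libraries and a fitted log2 change of 1.04 ± 0.48 after stripping (edgeR adjusted p = 0.173). Groups overlapped for Psmb6 and Psmb7.

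Of the beta subunits without an active site in this ring, Psmb3 had the highest fitted difference of the ring with NGO against stripped control skin. Its levels were 104, 52.5 and 50.7 CPM in the unstripped, 60.0, 37.7 and 54.3 CPM in the stripped control and 99.3, 131 and 90.3 CPM in the NGO-treated libraries, so that the NGO-treated libraries lay above the stripped control ones without overlap, and the log2 fold change of 1.08 ± 0.42 did not pass (edgeR adjusted p = 0.158). Psmb2 had the highest value of the ring after stripping and the largest SE. Its libraries read 6.88, 20.04 and 19.7 CPM in the unstripped, 8.28, 67.9 and 35.7 CPM in the stripped control and 29.0, 9.25 and 40.1 CPM in the NGO-treated libraries, with a fitted log2 change of 1.26 ± 0.84 (edgeR adjusted p = 0.377). Psmb4 stayed close together at 297, 195 and 184 CPM in the unstripped, 187, 225 and 189 CPM in the stripped control and 284, 299.8 and 216 CPM in the NGO-treated libraries, and its 95% interval after stripping ran from -0.82 to 0.48 log2 units.

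The 19S base holds the ring of ATPases that pulls substrates into the core, and none of the 6 ATPase genes was called in any comparison by edgeR. Beside 27.9%, 21.2% and 11.7% of all genes, 0, 1 and 2 of the ATPase genes had an unadjusted edgeR p under 0.05. Their summed level was 523 ± 138 CPM, 655 ± 157 CPM and 768 ± 41.6 CPM (SD, n = 3), and all 6 fitted values were positive in NGO-treated against unstripped skin (median 0.30). Psmc2, the Rpt1 ATPase, stood at 91.1, 70.2 and 94.3 CPM in the unstripped, 115, 89.4 and 137 CPM in the stripped control and 167, 166 and 244 CPM in the NGO-treated libraries. The NGO-treated libraries lay above all others, with a fitted log2 change of 1.17 ± 0.33 against unstripped skin (edgeR adjusted p = 0.103). The call depends on the tool: DESeq2 gave an adjusted p of 0.0227, limma-voom 0.00628 and an edgeR fit of those 2 groups alone 0.0394. Psmc6, called by limma-voom in that comparison, had 106, 83.1 and 79.9 CPM in the unstripped, 119, 83.8 and 119 CPM in the stripped control and 150.1, 185 and 131 CPM in the NGO-treated libraries and an edgeR value of 0.80 ± 0.33 (edgeR adjusted p = 0.338). Psmc1, the Rpt2 ATPase, had 128, 62.2 and 63.1 CPM in the unstripped, 93.6, 105 and 145 CPM in the stripped control and 92.7, 49.7 and 135 CPM in the NGO-treated libraries. Psmc5, the Rpt6 ATPase, had 59.2, 41.3 and 32.4 CPM in the unstripped, 33.1, 21.1 and 41.8 CPM in the stripped control and 56.2, 47.4 and 44.1 CPM in the NGO-treated libraries, and its NGO-treated libraries lay above the stripped control ones (log2 fold change 0.62 ± 0.49; edgeR adjusted p = 0.515).

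The 3 other base subunits are the scaffold proteins Psmd1 and Psmd2 and the ubiquitin receptor Psmd4, and none was called (0 of 3 in each comparison). Psmd1 had 142, 168 and 153 CPM in the unstripped, 162, 241 and 217 CPM in the stripped control and 258, 272 and 218 CPM in the NGO-treated libraries. The NGO-treated libraries lay above the unstripped ones, with a fitted log2 change of 0.69 ± 0.29 (edgeR adjusted p = 0.345). Psmd2 had 268, 193 and 222 CPM in the unstripped, 278, 299 and 315 CPM in the stripped control and 292, 307 and 260.0 CPM in the NGO-treated libraries. Its stripped control libraries lay above the unstripped ones by a fitted log2 change of 0.38 ± 0.27 (edgeR adjusted p = 0.405). The receptor Psmd4 had 327, 183 and 149 CPM in the unstripped, 193, 255 and 356 CPM in the stripped control and 343, 232 and 315 CPM in the NGO-treated libraries. Its groups overlapped, with log2 fold changes of 0.29 ± 0.36, 0.15 ± 0.36 and 0.43 ± 0.36 in the order of the comparisons above (edgeR adjusted p = 0.68, 0.868 and 0.809).

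Of the 8 lid genes, 2 were called higher in stripped control against unstripped skin, beside 5.97% of all genes called higher. With NGO against stripped control skin 1 was called lower, beside 1.18% of all genes. The 2 genes are Psmd8 and Psmd11, and the Psmd11 call depended on single libraries, as given below. Psmd8 encodes Rpn12, a lid subunit that joins late in lid assembly, and lies on mouse chromosome 7 (mm10, 29174188 to 29180701, minus strand). It had 159.9, 154 and 141 CPM in the unstripped, 373, 861 and 989 CPM in the stripped control and 268, 276 and 331 CPM in the NGO-treated libraries. Every stripped control library lay above every other library, and every NGO-treated library lay between the other groups. The means were 152 ± 9.41 CPM, 741 ± 325 CPM and 291 ± 34.5 CPM (SD, n = 3). After stripping the level was 4.88-fold higher, a fitted log2 change of 2.29 ± 0.36 (SE; edgeR adjusted p = 0.00073), in 3 of 3 libraries, and this call held without each of the 9 libraries in turn (2.05 to 2.67). With NGO it fell by 1.35 ± 0.34 on the log2 scale against stripped control skin (edgeR adjusted p = 0.0415). The latter call was lost when any 1 library other than stripped control replicate 1 was left out, with log2 fold changes of -1.51 to -1.07 and adjusted p-values of 0.0568 to 0.143, and in a fit of the 2 groups alone (0.126). Against unstripped skin the NGO-treated libraries were higher by 0.94 ± 0.34, without overlap, at an edgeR adjusted p of 0.249, which was 0.0424 without stripped control replicate 1.

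Psmd8 also stood apart from its own complex. Its count divided by the summed count of the other 7 lid genes in the same library was 0.173, 0.224 and 0.177 in unstripped skin, 0.526, 0.701 and 0.727 after stripping with control cream and 0.235, 0.326 and 0.232 with NGO. This ratio needs no scaling between libraries, and its groups did not overlap either. The summed level of the 8 lid genes, Psmd8 included, was 955 ± 123 CPM, 1841 ± 669 CPM and 1428 ± 318 CPM (SD, n = 3). The summed shares of skeletal muscle, adipocyte, red blood cell, neutrophil, macrophage and endothelial markers all had the same order of group means as Psmd8. Single markers did not all follow these sums. With NGO against stripped control skin, 5 of 8 tested macrophage and 3 of 6 adipocyte markers had positive fitted values. All tested muscle (16), red blood cell (6), neutrophil (7) and endothelial (6) markers had negative ones. For muscle, within stripped control skin the libraries 1, 2 and 3 had muscle shares of 4.46%, 7.71% and 9.85% beside Psmd8 levels of 373, 861 and 989 CPM. Within the other groups the orders differed. Unstripped libraries had muscle shares of 0.0711%, 0.0111% and 0.154% beside Psmd8 levels of 159.9, 154 and 141 CPM. NGO-treated libraries had muscle shares of 2.59%, 2.34% and 4.56% beside Psmd8 levels of 268, 276 and 331 CPM. Trim63, a ubiquitin ligase of muscle, had 5.16, 0 and 3.54 CPM in the unstripped, 902, 2599 and 3227 CPM in the stripped control and 374, 329.6 and 1129 CPM in the NGO-treated libraries. The part of these cell types in the Psmd8 levels was not tested.

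The other lid gene that rose was Psmd11 (Rpn6), which braces the lid against the core (chromosome 11, 80428615 to 80473248, plus strand). Its levels were 136, 136 and 130.3 CPM in the unstripped, 199, 289.5 and 386 CPM in the stripped control and 229.8, 154 and 165 CPM in the NGO-treated libraries. The stripped control libraries lay above the unstripped ones by a fitted log2 change of 1.12 ± 0.32 (SE; edgeR adjusted p = 0.0342). The call was lost without any unstripped library (adjusted p = 0.0963, 0.126 and 0.14 without replicates 1, 2 and 3), without stripped control replicate 2 or 3 (0.064 and 0.113) and without NGO replicate 2 (0.0509), and in a fit of the 2 groups alone (0.0535). With NGO against stripped control skin the value was -0.67 ± 0.32 (edgeR adjusted p = 0.248).

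To show what lies upstream of the 2 lid genes that rose together, the 250 bases before their RefSeq starts (mm10) are printed on the gene's strand, 5′ to 3′, for Psmd8 (chr7:29180674-29180923, minus strand) and Psmd11 (chr11:80428365-80428614, plus strand); capitals mark the only motif matches found there, 1 GC box (GGGCGG) in each.
Psmd8: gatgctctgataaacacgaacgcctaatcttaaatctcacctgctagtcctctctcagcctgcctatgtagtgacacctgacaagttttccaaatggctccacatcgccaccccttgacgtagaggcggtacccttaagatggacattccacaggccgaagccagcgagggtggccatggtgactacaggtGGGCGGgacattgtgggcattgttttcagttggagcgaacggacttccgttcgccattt
Psmd11: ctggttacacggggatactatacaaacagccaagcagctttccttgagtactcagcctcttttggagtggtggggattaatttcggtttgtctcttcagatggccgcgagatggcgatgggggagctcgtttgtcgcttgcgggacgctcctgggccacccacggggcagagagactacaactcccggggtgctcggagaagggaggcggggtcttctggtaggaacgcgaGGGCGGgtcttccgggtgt
Promoter windows of the same length were searched on both strands for 6 motifs, none of which contains another. Members were counted by gene, with a match in any of a gene's windows, and the background by promoter. The shares therefore differ in unit. Of 38 members with a RefSeq promoter, 21 (55.3%) held the GC box, which Sp1 binds, as did 32.7% of 32851 promoters of all genes. The core of the antioxidant response element (TGACNNNGC), bound by Nfe2l1 and Nfe2l2, was in 5 (13.2%: Psmb5, Psmb6, Psmc6, Psmd12 and Psmd9) against 10.2% of all. A CCAAT box, spelled as its name, was in 15 (39.5%) against 33.8%. The interferon element ISRE (GAAA on either side of any 2 bases) was in 3 (7.89%: Psmb3, Psmd4 and Psmd9) against 2.98% of all. The NF-kB site (GGGA, any base, then TTTCC) was in 0 against 0.356%. These matches describe letters in a window and no binding.

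**Figure D2:**
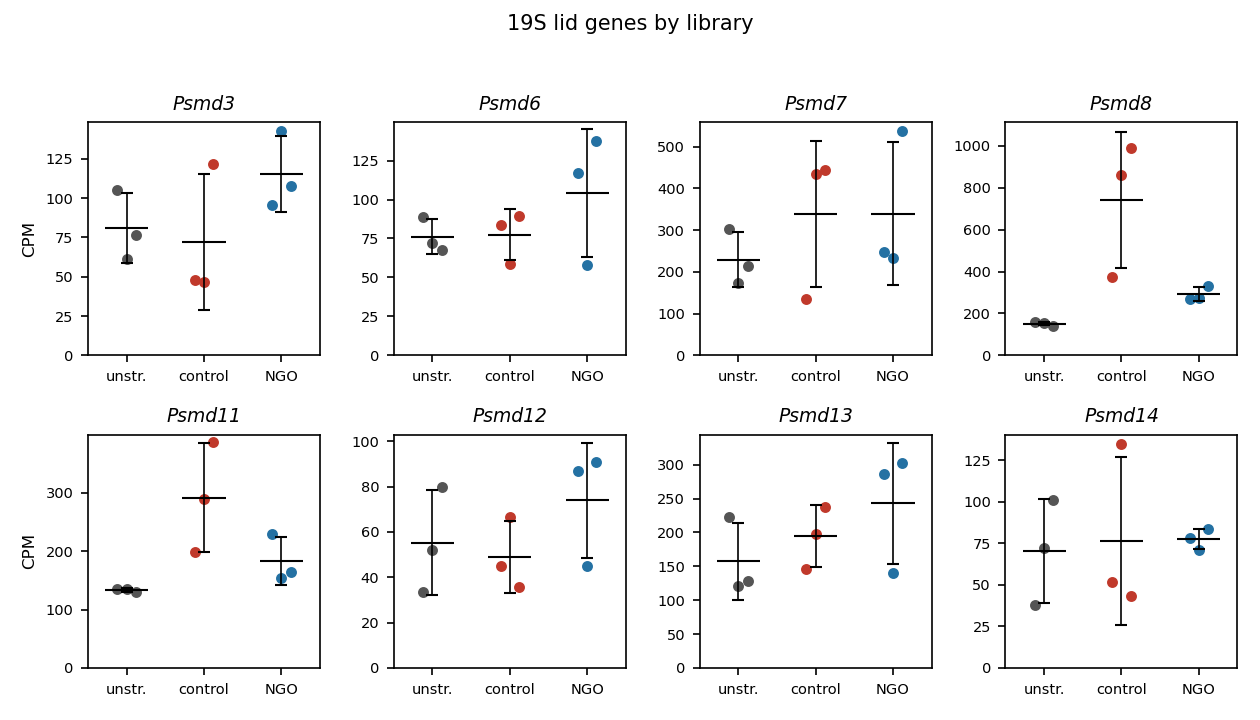
Levels of the 8 lid genes in CPM (y axes from 0, on different scales) in unstripped, stripped control and NGO-treated skin; points are libraries, the horizontal line is the mean and the bar is 1 SD (n = 3). In the Psmd8 panel the 3 groups do not overlap, in the Psmd11 panel the unstripped libraries lie below both other groups, which overlap, and in the other 6 panels all groups overlap.

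The 6 remaining lid genes were not called in any comparison. Psmd14, the deubiquitinase of the lid, had 38.2, 71.9 and 101 CPM in the unstripped, 51.7, 135 and 43.4 CPM in the stripped control and 78.5, 71.3 and 83.5 CPM in the NGO-treated libraries. Its groups overlapped, and its log2 fold change with NGO against stripped control skin was 0.02 ± 0.50 (edgeR adjusted p = 0.992). Psmd3 had 105, 61.0 and 76.6 CPM in the unstripped, 47.6, 46.8 and 122 CPM in the stripped control and 95.4, 142 and 108 CPM in the NGO-treated libraries, the highest fitted value of the lid in that comparison (0.68 ± 0.44; edgeR adjusted p = 0.414). Psmd12 had 33.7, 52.2 and 79.9 CPM in the unstripped, 45.0, 66.6 and 35.7 CPM in the stripped control and 86.7, 44.9 and 90.7 CPM in the NGO-treated libraries, the lowest after stripping (-0.17 ± 0.48; edgeR adjusted p = 0.873). Psmd6, Psmd7 and Psmd13 had fitted values of 0.02, 0.56 and 0.30 after stripping, and the exons of Psmd13 overlap Sirt3 on the opposite strand.

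The assembly chaperones Psmd5, Psmd9 and Psmd10, which hold parts of the base during its assembly and leave the finished particle, were few in counts and wide in error (median SE 1.15 after stripping), and none was called. Psmd10 (gankyrin) had 18.6, 22.1 and 21.5 CPM in the unstripped, 4.14, 0 and 8.03 CPM in the stripped control and 27.8, 35.4 and 7.82 CPM in the NGO-treated libraries. The stripped control libraries lay below the unstripped ones, with a fitted log2 change of -2.34 ± 1.19 (edgeR adjusted p = 0.224), and the value with NGO against stripped control skin was 2.53 ± 1.20 (edgeR adjusted p = 0.245). Psmd5 had 5.85, 28.3 and 39.2 CPM in the unstripped, 24.3, 10.4 and 35.3 CPM in the stripped control and 1.21, 6.94 and 8.82 CPM in the NGO-treated libraries, so that the NGO-treated libraries lay below the stripped control ones (-2.03 ± 1.01; edgeR adjusted p = 0.267). Psmd9 had 5.50, 13.6 and 8.84 CPM in the unstripped, 2.07, 13.3 and 8.03 CPM in the stripped control and 27.8, 6.71 and 6.82 CPM in the NGO-treated libraries, with overlapping groups.

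**Figure D3:**
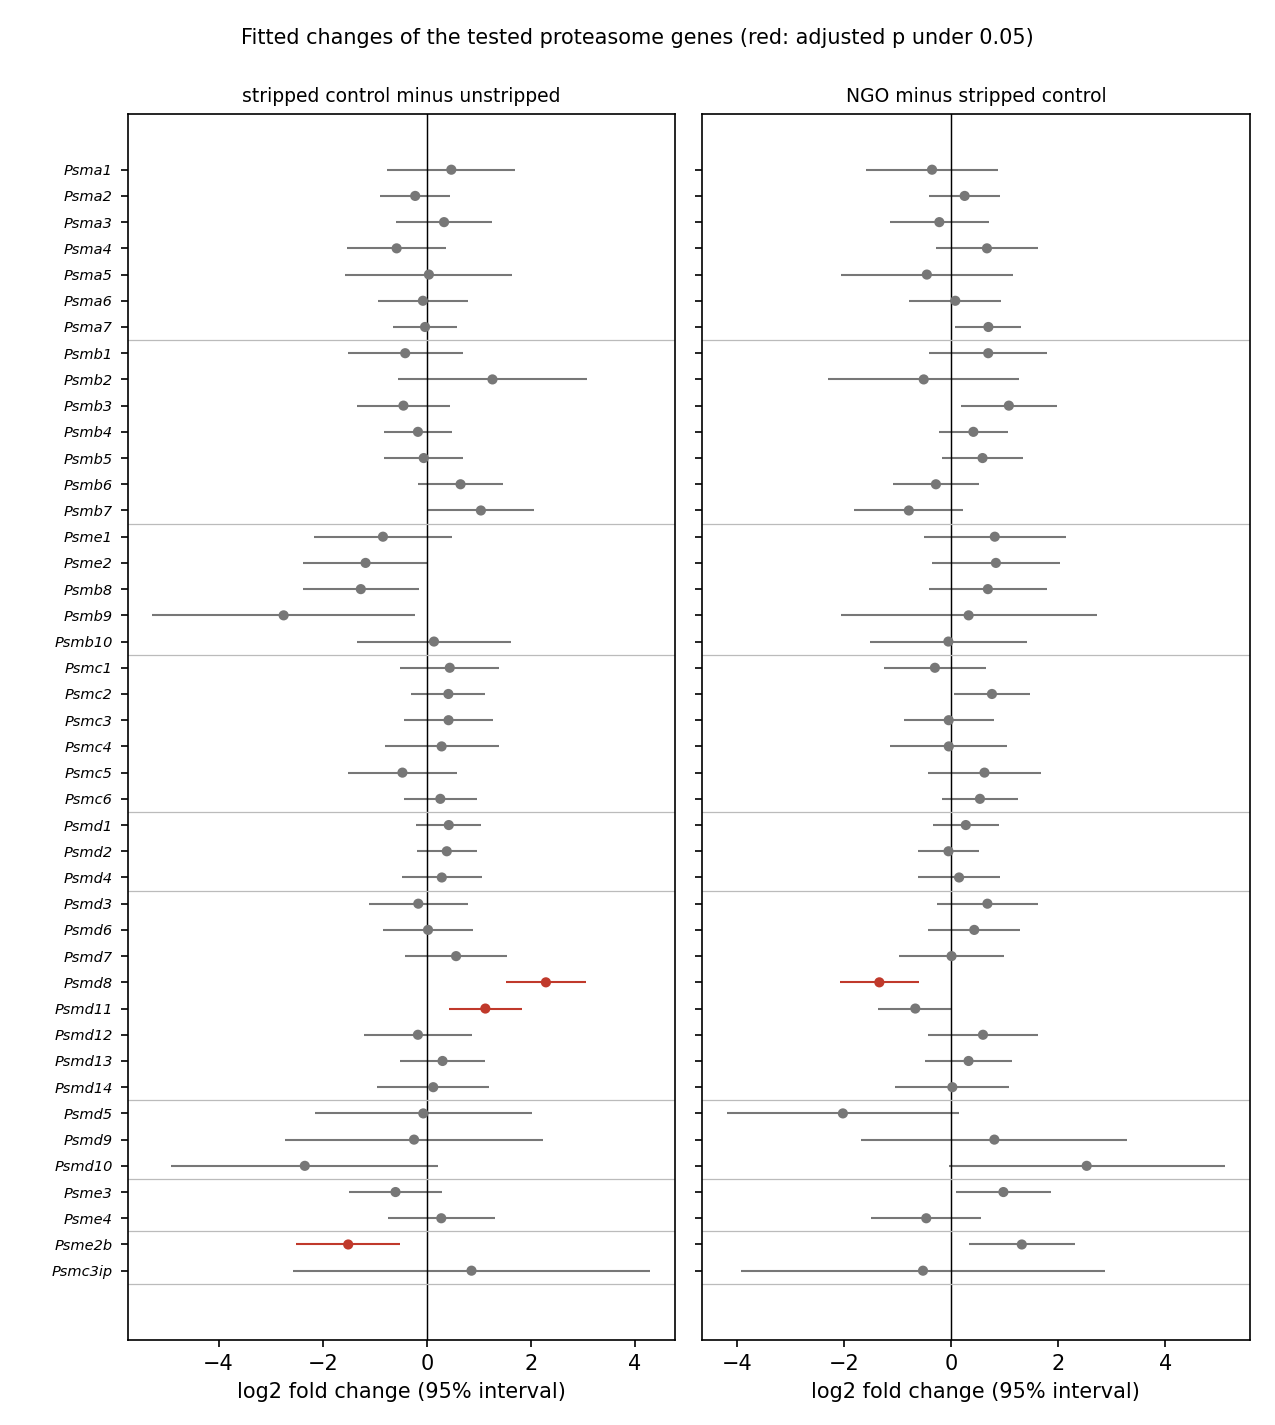
Fitted log2 fold changes of the 43 tested proteasome genes (points) with 95% intervals (lines), for stripped control minus unstripped skin (left) and NGO-treated minus stripped control skin (right), ordered by role; red marks an adjusted p under 0.05. Psmd8, Psmd11 and Psme2b are red on the left and Psmd8 alone on the right; both panels use the stripped control libraries.

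None of the 5 genes of the immunoproteasome and its activator passed the test in any comparison, while 4 of the 5 had negative fitted values after stripping (median -1.18, against -0.20 over all genes). Of these, 2 (Psmb8 and Psmb9) had an unadjusted edgeR p under 0.05, beside 27.9% of all genes. In 3 of the 5 (Psmb8, Psmb9 and Psme2) the stripped control libraries lay below the unstripped ones without overlap. That stands beside the 38.5% of all genes without overlap in either direction. The summed level of the 5 genes was 250 ± 10.6 CPM in unstripped, 115 ± 44.6 CPM in stripped control and 173 ± 53.3 CPM in NGO-treated skin (SD, n = 3). By library it was 247, 241 and 262 CPM, then 92.6, 86.1 and 166 CPM, then 207, 112 and 201 CPM, so that all stripped libraries lay below the unstripped ones. With NGO against stripped control skin 4 of the 5 fitted values were positive (median 0.68, against 0.07 over all genes), and the libraries of the groups overlapped for each gene. Against unstripped skin 4 of the 5 were negative with NGO (median -0.34), and the libraries did not overlap for Psmb8 and Psmb9.

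Psmb8 (chromosome 17, 34197721 to 34201454, plus strand), which takes the place of Psmb5, had 56.8, 69.3 and 76.3 CPM in the unstripped, 20.7, 14.6 and 48.5 CPM in the stripped control and 51.9, 40.7 and 42.4 CPM in the NGO-treated libraries. The log2 fold change was -1.27 ± 0.52 after stripping (SE; edgeR adjusted p = 0.127) and 0.68 ± 0.51 with NGO against stripped control skin (adjusted p = 0.49). It passed only without stripped control replicate 3, the highest of its group (-1.95, adjusted p = 0.0242). Psmb9 (chromosome 17, 34181987 to 34187764, minus strand), which takes the place of Psmb6, had 27.9, 56.9 and 76.0 CPM in the unstripped, 16.0, 8.12 and 0 CPM in the stripped control and 8.76, 3.01 and 18.0 CPM in the NGO-treated libraries. All 6 stripped libraries lay below the unstripped ones, and 1 of them held no count. The fitted values were -2.75 ± 1.17 after stripping and -2.43 ± 1.14 with NGO against unstripped skin (edgeR adjusted p = 0.143 and 0.442); limma-voom called the former (-4.77, adjusted p = 0.0354). Exons of Psmb9 overlap Tap1 on the opposite strand, and the sources name no strand setting for the counting. Tap1, the peptide transporter subunit, had 164, 147 and 145 CPM in the unstripped, 3.62, 4.87 and 13.5 CPM in the stripped control and 69.4, 54.8 and 103 CPM in the NGO-treated libraries.

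Psmb10 (chromosome 8, 105935735 to 105938444, minus strand), which takes the place of Psmb7, did not share these values. It had 45.1, 12.7 and 16.8 CPM in the unstripped, 31.0, 16.9 and 34.1 CPM in the stripped control and 32.9, 21.1 and 25.0 CPM in the NGO-treated libraries, with overlapping groups and log2 fold changes of 0.14 ± 0.69, -0.05 ± 0.68 and 0.08 ± 0.68 in the 3 comparisons (edgeR adjusted p = 0.932, 0.979 and 0.998). The PA28 activator is a ring of Psme1 and Psme2 proteins that opens the core. Psme1 (chromosome 14, 55578123 to 55581529, plus strand), whose exons overlap Emc9 on the opposite strand, had 61.9, 48.6 and 43.6 CPM in the unstripped, 15.0, 24.4 and 46.3 CPM in the stripped control and 61.9, 15.7 and 73.4 CPM in the NGO-treated libraries. Its log2 fold change after stripping was -0.84 ± 0.62 (edgeR adjusted p = 0.428), and its groups overlapped. Psme2 (chromosome 14, 55587441 to 55591113, minus strand) had 55.4, 53.6 and 48.9 CPM in the unstripped, 9.83, 22.1 and 37.6 CPM in the stripped control and 51.3, 31.2 and 42.1 CPM in the NGO-treated libraries. Its log2 fold change after stripping was -1.18 ± 0.56 (edgeR adjusted p = 0.19).

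Psme2b is the near copy of Psme2 on chromosome 11 (48945354 to 48946190, minus strand); an alignment of their transcripts ran over 794 bases, of which 789 were identical (99.4%), so reads of the pair may not be told apart. Psme2b had 111, 119 and 111 CPM in the unstripped, 25.3, 25.7 and 68.4 CPM in the stripped control and 126, 62.0 and 111 CPM in the NGO-treated libraries. All stripped control libraries lay below the unstripped ones, and it fell by 1.51 ± 0.46 on the log2 scale (SE; edgeR adjusted p = 0.0463). With NGO against stripped control skin the value was 1.32 ± 0.46 (edgeR adjusted p = 0.118), which passed without stripped control replicate 3 (1.99, adjusted p = 0.0264). The fall after stripping passed in 2 of 9 fits without 1 library, those without stripped control replicate 3 (adjusted p = 0.00776) or NGO replicate 2 (0.0495); without the others the adjusted p was 0.0643 to 0.149. It was also lost under RLE (0.0624) and upper quartile scaling (0.0627). With the counts of the pair summed, the change after stripping was -1.40 (edgeR adjusted p = 0.0454). A gene on the same strand, 9930111J21Rik1, overlaps the exon of Psme2b and held 0 to 12 counts per library.

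For Psmb8 and Psmb9, the catalytic subunits whose stripped control libraries lay below the unstripped ones, the 250 bases before the RefSeq starts (mm10) are printed in the same way (Psmb8, chr17:34197945-34198194, plus strand; Psmb9, chr17:34187331-34187580, minus strand). Capitals mark a GAS element in Psmb8, and a GC box and a CCAAT box read on the other strand (ATTGG) in Psmb9.
Psmb8: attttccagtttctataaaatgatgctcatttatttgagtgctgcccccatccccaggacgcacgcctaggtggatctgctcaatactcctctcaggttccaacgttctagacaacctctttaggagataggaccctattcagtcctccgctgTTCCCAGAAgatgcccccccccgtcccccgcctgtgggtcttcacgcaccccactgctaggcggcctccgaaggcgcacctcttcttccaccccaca
Psmb9: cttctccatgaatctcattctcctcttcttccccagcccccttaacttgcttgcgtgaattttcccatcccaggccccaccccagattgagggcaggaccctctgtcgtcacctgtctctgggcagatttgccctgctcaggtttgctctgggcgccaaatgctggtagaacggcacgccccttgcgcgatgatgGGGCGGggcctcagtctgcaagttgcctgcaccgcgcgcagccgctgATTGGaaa
For the GAS element, the interferon gamma activated site (TTCNNNGAA), Psmb8 was the only member of the 38 with a match (2.63%), against 7.02% of all promoters. No ISRE or NF-kB match was found in the windows of the immunoproteasome genes that had a RefSeq promoter. The windows of Psmb8 and Psmb9 lie within the gene bounds given above. Sequence before those bounds was not searched for these genes.

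**Figure D4:**
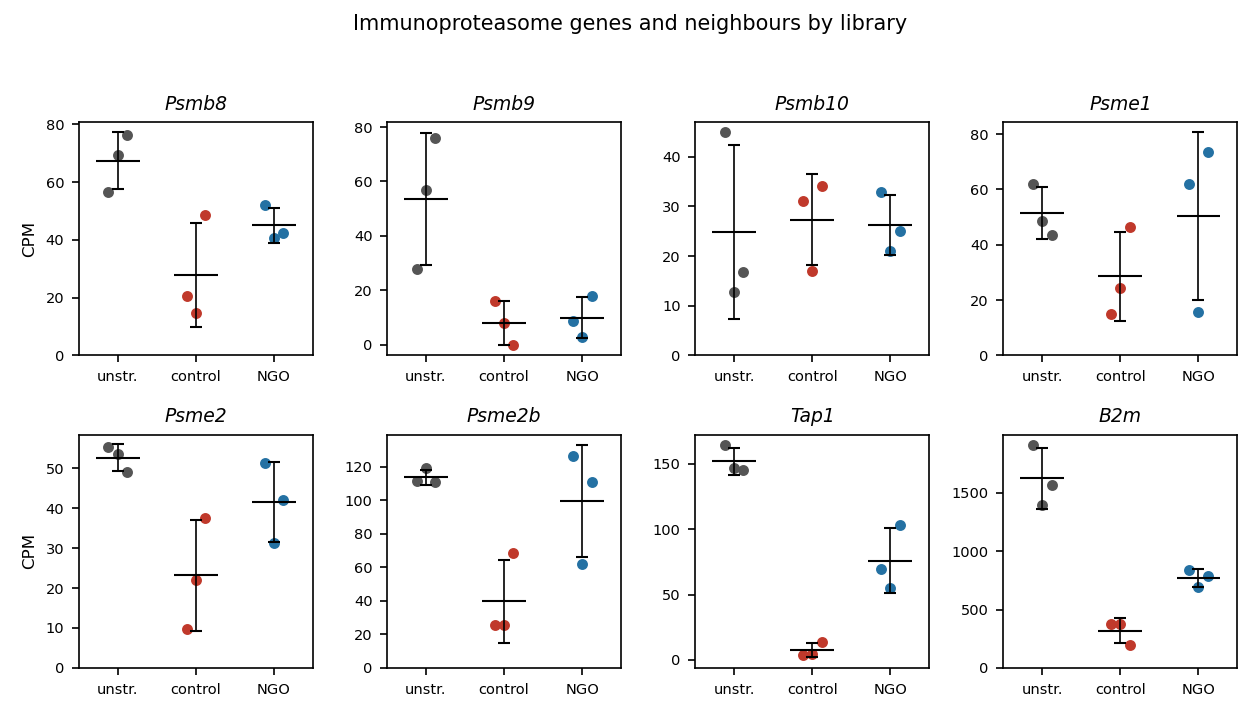
Levels in CPM (different y scales) of the 5 genes of the immunoproteasome and its activator, of Psme2b and of the class I genes Tap1 and B2m; points are libraries, the line is the mean and the bar is 1 SD (n = 3). Stripped control libraries lie below the unstripped ones without overlap for Psmb8, Psmb9, Psme2, Psme2b, Tap1 and B2m, and not for Psmb10 and Psme1.

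Ratios of each replacement subunit to its constitutive counterpart were compared within libraries, on the log2 scale with 0.5 added to both counts. For Psmb8 over Psmb5 they were -1.17, -0.02 and -0.30 in unstripped skin, -2.52, -2.43 and -0.75 after stripping with control cream and -1.50, -1.90 and -1.53 after stripping with NGO. The NGO-treated libraries lay below the unstripped ones, with a difference in means of -1.14 ± 0.37 (SE). That difference had an exact two-sided permutation p of 0.1, the smallest that 3 against 3 libraries allow, and an adjusted p of 0.3 over 9 comparisons of ratios. The stripped control libraries overlapped with both (differences of -1.40 and 0.26; exact permutation p = 0.2 and 0.8, adjusted 0.45 and 0.9). For Psmb9 over Psmb6 the ratios were -3.13, -0.84 and -0.82, then -3.44, -5.33 and -10.57, then -4.51, -5.78 and -3.76. Both stripped groups lay below the unstripped one (-4.85 and -3.08; exact permutation p = 0.1 for each, adjusted 0.3), and between themselves they overlapped (1.77; exact permutation p = 0.7, adjusted 0.9). The ratio of -10.57 comes from the library with no Psmb9 count, so its size is set by the added 0.5. Without that library, stripped control replicate 3, the difference after stripping was -2.79 and that between the stripped groups -0.30.

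For Psmb10 over Psmb7 all groups overlapped, at 0.80, -1.86 and -1.26, then -0.53, -2.28 and -1.60, then -0.16, -0.85 and -1.22. The differences were -0.70, 0.73 and 0.03 in the order of the comparisons above (exact permutation p = 0.6, 0.3 and 0.9, adjusted 0.9, 0.54 and 0.9). With 3 libraries a group, no ratio could reach 0.05.

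**Figure D5:**
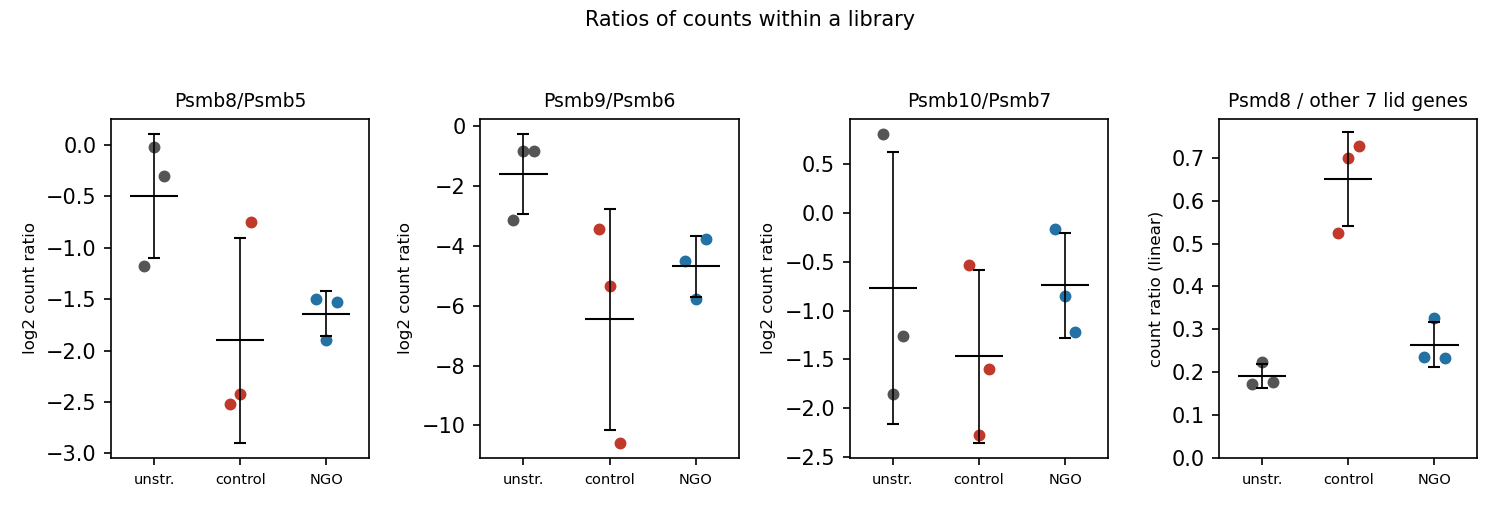
Count ratios within a library: log2 ratios of each replacement catalytic subunit to its constitutive counterpart (first 3 panels) and the linear ratio of Psmd8 to the other 7 lid genes (last panel), in unstripped, stripped control and NGO-treated skin; points are libraries, the line is the mean and the bar 1 SD (n = 3). The Psmd8 ratio is 0.526 to 0.727 in stripped control skin, above all other libraries.

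The other activators cap the core in place of the 19S particle: Psme3 (PA28 gamma) is nuclear, and Psme4 (PA200) is known from histone turnover. Psme3 had 87.0, 71.0 and 51.6 CPM in the unstripped, 55.9, 48.7 and 33.7 CPM in the stripped control and 109.9, 62.7 and 99.0 CPM in the NGO-treated libraries. Its NGO-treated libraries lay above the stripped control ones, with a fitted log2 change of 0.97 ± 0.42 that did not pass (edgeR adjusted p = 0.194). Psme4 had 78.8, 109.7 and 117 CPM in the unstripped, 231, 52.6 and 87.7 CPM in the stripped control and 95.1, 69.6 and 103 CPM in the NGO-treated libraries. Its groups overlapped, since stripped control replicate 1 was the highest and replicate 2 the lowest of all libraries. Psmc3ip, a recombination factor, had 0 to 19.9 CPM and was not called, and its exons overlap Mlx on the opposite strand.

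Genes that work with the proteasome were read from lists beside the members. Over all genes edgeR called 13.6%, 5.05% and 2.51% in the 3 comparisons. An unadjusted edgeR p under 0.05 was reached by 27.9%, 21.2% and 11.7% of all genes. Among 14 tested proteasome-associated genes, edgeR called 1 after stripping and 0 in each comparison with NGO (2 and 2 at an unadjusted p under 0.05). The gene was Zfand5, a protein known to stimulate the proteasome in wasting muscle, which had 30.3, 43.3 and 49.2 CPM in the unstripped, 96.7, 174 and 138 CPM in the stripped control and 78.8, 123 and 120.1 CPM in the NGO-treated libraries and rose by 1.73 ± 0.39 on the log2 scale (SE; edgeR adjusted p = 0.00891). DESeq2 and limma-voom also called it higher with NGO than in unstripped skin, and in NGO against stripped control skin they called 0 of the list. The maturation factor Pomp had fitted values of -0.79 ± 0.35 and 0.78 ± 0.35 after stripping and with NGO against stripped control skin (edgeR adjusted p = 0.163 and 0.224). Of 15 ubiquitin and shuttle genes, 1 rose after stripping (DESeq2 2, with Vcp, and limma-voom 1). With NGO edgeR called 0 of these against stripped control skin (3 at an unadjusted p under 0.05; DESeq2 0, limma-voom 0) and 0 against unstripped skin (2 at an unadjusted p under 0.05; DESeq2 0, limma-voom 2). The gene called by edgeR after stripping was the autophagy and ubiquitin receptor Sqstm1, which rose by 2.08 ± 0.55 (edgeR adjusted p = 0.0219). Of 4 tested ubiquitin ligases of muscle atrophy, Trim63 and Asb2 rose after stripping and were higher with NGO than in unstripped skin. Fbxo32 and Fbxo30 were not called. All 16 skeletal muscle markers were also called higher in both of those comparisons, and the part of muscle content in the ligase values was not tested. With NGO against stripped control skin edgeR, DESeq2 and limma-voom called 0 of the 4 ligases (1 at an unadjusted p under 0.05).

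Of 8 tested regulators of proteasome genes, 1 rose after stripping. With NGO edgeR, DESeq2 and limma-voom called 0 of the 8 against stripped control skin (0 at an unadjusted p under 0.05), and edgeR called 0 against unstripped skin (2 at an unadjusted p under 0.05; DESeq2 1, limma-voom 2). Nfe2l2, an activator of antioxidant and core proteasome genes, had 78.8, 77.2 and 108 CPM in the unstripped, 223, 161 and 158 CPM in the stripped control and 170.3, 219.8 and 241 CPM in the NGO-treated libraries and rose by 1.04 ± 0.32 after stripping (edgeR adjusted p = 0.0453). Nfe2l1 had a value of 1.07 ± 0.50 in that comparison (edgeR adjusted p = 0.177).

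The products of the class I presentation genes load the peptides that the proteasome cuts. After stripping edgeR called 6 of 10 lower (Tap1, Tapbp, B2m, H2-K1, H2-D1 and Pdia3), beside 13.6% of all genes called in either direction. With NGO it called 5 of 10 higher than in stripped control skin, where 3.87% of all genes were called higher. Against unstripped skin it called 3 of 10 lower with NGO, where 0.451% of all genes were called lower. In the same order DESeq2 called 7, 6 and 4 of the 10 and limma-voom 5, 3 and 5. Tap1 had log2 fold changes of -4.34 ± 0.55 and 3.34 ± 0.52 (edgeR adjusted p = 0.000176 and 0.00383), and B2m of -2.36 ± 0.32 and 1.29 ± 0.31 (adjusted p = 3e-04 and 0.0327). Of 9 tested interferon gamma genes, 1 (Ifngr1) was lower after stripping, and edgeR, DESeq2 and limma-voom called 0 in the other comparisons, where 1 and 0 had an unadjusted edgeR p under 0.05; Ifng itself had 0 counts in all libraries. Langerhans and dendritic cell markers, 8 of 8 detected in each group, took a share of 0.0776% to 0.0947% in unstripped skin, 0.0107% to 0.0237% after stripping with control cream and 0.0289% to 0.0367% after stripping with NGO. The part of these cells and of the keratinocytes in the immunoproteasome and class I values was not tested.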

How the data were processed

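RNA of back skin was isolated with Trizol, and 500 ng went into a Lexogen QuantSeq library, a 3′-tag method, per the labels' protocols. The authors deposited whole-number counts per gene symbol, 1 table per library. Bowtie2, bedtools and mm10 are named in the submitters' processing notes; versions, strand and the treatment of reads with several matches are not given in the sources used here.

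Counts were tested in R 4.3.3 with edgeR 4.0.16 (robust quasi-likelihood, TMM, filterByExpr) on all 9 libraries, with Benjamini-Hochberg adjustment over 13740 genes; SE is the log2 fold change divided by the root of F. A floor of 3 counts over a group was 0.310, 0.369 and 0.220 CPM in unstripped, stripped control and NGO-treated skin, for counting error only. Genes were annotated from GENCODE M21 and RefSeq (mm10). The steps were tested on simulated counts. Replicate libraries differed by 7.82 to 61.5 chi-square units per gene, so none was a repeat sequencing of another. This cannot exclude separate libraries made from the same RNA or animal. Alternatives were RLE and upper quartile scaling, library sizes without marker genes, a filter of 20 counts in 3 libraries or none, limma-voom (limma 3.58.1), DESeq2 1.42.0, the replicate number as a block, fits of 2 groups, leaving out each library, and a prior count of 2 in ratios; summing Psme2 and Psme2b was added after seeing the data. Members, lists and tests were chosen with earlier results of these data known. The results of 2 genes of the lists are not reported here, and the lists are counted without them. Named with library values are the immunoproteasome genes, their constitutive counterparts, Psmd4, Psme3, Psme4, called genes, and the highest and lowest of each role in each comparison.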

Additional observations from a re-analysis of the deposited data

How the results depend on the processing

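After stripping, the 2 higher members became 1 (Psmd8) with the replicate block and in a fit of the 2 groups, 3 under limma-voom (with Psmb6), and 1 to 2 when a library was left out. The 1 lower gene (Psme2b) became 0 under RLE and upper quartile scaling and in a fit of the 2 groups, 2 under limma-voom (with Psmb9), and 0 to 2 when a library was left out. With NGO against stripped control skin, the 0 higher genes became 0 to 1 when a library was left out, and the 1 lower gene (Psmd8) became 0 with the replicate block, 0 in a fit of the 2 groups, and 0 to 1 when a library was left out. Against unstripped skin the 0 higher genes became 1 with DESeq2, 4 with limma-voom, 2 in a fit of the 2 groups and 0 to 1 when a library was left out. The cause was not tested, except that fewer libraries enter the latter fits.

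Of 1821 values of named genes under alternatives, 28 lost and 12 gained a call and 0 called values changed sign; 94 changes of sign were in values never called. RLE scaling moved the median of all genes by 0.13 after stripping and by -0.12 with NGO against stripped control skin; limma-voom moved it by -0.42, 0.17 and -0.17 and the replicate block by -0.26, 0.12 and -0.10 in the 3 comparisons. Over all genes, DESeq2 called 2976, 1721 and 756 genes in the 3 comparisons where edgeR called 1870, 694 and 345; limma-voom called 2589, 414 and 1353, and fits of 2 groups called 118 with NGO against stripped control skin and 602 against unstripped skin. Deviations of same-numbered libraries had correlations of -0.06 to 0.10, and 5 of 9 libraries were closest to their own number. Whether same-numbered libraries share more than a number was not tested. The replicate block called 1650, 559 and 313 genes. Without 1 library edgeR called 1159 to 2124, 206 to 929 and 214 to 495 genes. The SD of the subunit ratios between libraries is wide. Leaving out 1 of 3 libraries always moves a group's mean by less than its SD, so such a move shows no stability. The differences in subunit ratios were taken again under a prior count of 2 and without single libraries, and several depended on 1 library. For Psmb9 over Psmb6 they ran from -6.35 to -2.79 after stripping, from -0.30 to 3.27 with NGO against stripped control skin and from -3.85 to -2.54 against unstripped skin, with the outer values of the first and second without stripped control replicates 1 and 3. For Psmb10 over Psmb7 they ran from -1.24 (without unstripped replicate 2) to 0.09 (without unstripped replicate 1) after stripping, from 0.32 to 1.19 with NGO against stripped control skin (without stripped control replicates 2 and 1) and from -0.52 to 0.81 against unstripped skin (without unstripped replicates 2 and 1). For Psmb8 over Psmb5 they ran from -1.97 to -1.09 after stripping, from -0.05 to 0.83 with NGO against stripped control skin (without stripped control replicates 1 and 3) and from -1.48 to -0.90 against unstripped skin. The 95% interval of a typical member reached 0.96, 0.96 and 0.95 log2 units to either side in the 3 comparisons; the parts of depth and of the spread between libraries in this were not told apart.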
